A study of Homo sapiens with 66 samples.

Results

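ABCB1, ABCB4, ABCG2, ABCC1, ABCC4 and ABCC5 are 6 ATP-binding cassette (ABC) transporters that carry drugs or their conjugates out of cells. They were taken by name from a table of 20167 genes, and all 6 were present. They were followed through 66 RNA-seq libraries of 2 established human multiple myeloma lines, multiple myeloma being a cancer of plasma cells. AMO1 (labelled AMO-1 WT) stands for the unselected cells, and L363-CFZr (labelled CFZr L363) is a derivative of another myeloma line, L363, that is resistant to carfilzomib (CFZ), a drug that blocks the proteasome. Both lines received the solvent DMSO or 1 µM of NCP26, HFG (halofuginone), halofuginol or NCP22 for 6 h or 24 h, and AMO1 alone also received CFZ. The study gives the CFZ dose in nM, lower than that of the other compounds, so CFZ was not matched to them in dose. HFG and NCP26 inhibit prolyl-tRNA synthetase, the enzyme that loads proline onto its tRNA. Halofuginol is an analogue of HFG, and NCP22 is the compound from which NCP26 was developed. In the study's assay both also bound the human enzyme, less tightly than HFG and NCP26 did. The study describes their potency as lower or absent. Each of the 22 groups (12 of AMO1, 10 of L363-CFZr) had 3 libraries. Parental L363 and CFZ-treated L363-CFZr were not analysed here, so that in the comparison of the lines the line of origin and the resistance cannot be told apart. Whether L363-CFZr is 1 clone is not given in the sources used here.

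ABC transporters use the energy of ATP to move molecules across membranes. ABCB1, known as P-glycoprotein or MDR1, exports a wide range of hydrophobic drugs, and carfilzomib is among its substrates. ABCG2, the breast cancer resistance protein, exports many anticancer agents. ABCC1, ABCC4 and ABCC5 belong to the multidrug resistance-associated proteins, of which ABCC1 exports glutathione conjugates and ABCC4 and ABCC5 also export cyclic nucleotides. ABCB4 is the close relative of ABCB1 that moves phosphatidylcholine into bile. It is the member with the least established part in drug resistance.

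On GRCh38, ABCB1 (ENSG00000085563) spans chr7:87503017-87713323 and ABCB4 (ENSG00000005471) lies beside it at chr7:87401696-87480435, both on the minus strand. ABCG2 (ENSG00000118777) is at chr4:88090150-88231628, ABCC4 (ENSG00000125257) at chr13:95019835-95301475 and ABCC5 (ENSG00000114770) at chr3:183919934-184017939, all 3 on the minus strand, while ABCC1 (ENSG00000103222) is on the plus strand at chr16:15949138-16143257. Reads were assigned to transcripts by 31-base words, so the words that genes share matter for relatives. Of the words in ABCB1 transcripts, 3.17% also occurred in ABCB4, and 2.62% of those in ABCB4 also occurred in ABCB1. RUNDC3B overlaps ABCB1 on the other strand and reached at most 0.68 CPM (counts scaled to library size, as everywhere below) in the DMSO libraries.

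ABCB1 was the member with the widest range in CPM, and its promoter window is shown for that reason. RefSeq (GRCh38.p14) gave 2 promoter windows for ABCB1. The window before the downstream start, chr7:87600885-87601134 on the minus strand, read 5′ to 3′ up to that start, with capitals at each match to a searched motif, was as follows.
ABCB1 downstream promoter: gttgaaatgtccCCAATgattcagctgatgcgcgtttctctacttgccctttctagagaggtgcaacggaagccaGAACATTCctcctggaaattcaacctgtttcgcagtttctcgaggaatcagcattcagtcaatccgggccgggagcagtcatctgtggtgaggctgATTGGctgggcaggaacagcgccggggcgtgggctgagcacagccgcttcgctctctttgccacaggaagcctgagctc
Both strands were searched for 6 motifs. The window held 2 matches to the CCAAT box (CCAAT), 238 bases before the start and, on the reverse strand, 79 bases before it. It held 1 match to the heat shock element as GAANNTTC, 175 bases before the start. None of these matches overlapped. Of 35114 promoter windows of the same length, 32% held CCAAT and 5.78% held GAANNTTC. The GC box (GGGCGG, 42.6% of windows), the core of the cyclic AMP response element (TGACG, 21.2%), the C/EBP-ATF response element (TGATGNAA, 3.14%) and the core of the antioxidant response element (TGACNNNGC, 10.9%) were not matched in this window. A match describes the letters only, and the window before the upstream ABCB1 start held none of the 6 motifs.

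The libraries held between 1666325 and 6596543 counts. All 10 plasma cell markers were present in both lines, with no mean over a line below 26.3 CPM, and 7 markers of other cell types summed to 12.4 to 41.4 CPM in AMO1, of which NCAM1 made up most, and to 0.855 to 11.6 CPM in L363-CFZr. Of those 7, 4 averaged under 1 CPM in AMO1 and 6 in L363-CFZr. Of the 10 plasma cell markers, 7 fell (adjusted p under 0.05) with NCP26 and 7 with HFG at 6 h in AMO1, and 7 and 5 at 24 h. In L363-CFZr 4 and 8 fell at 6 h, and 0 and 0 at 24 h. The shares of all tested genes that changed in either direction were 37.3%, 54.3%, 60.7% and 59% in these AMO1 comparisons. In those of L363-CFZr they were 18.8%, 54.5%, 7.09% and 1.17%. The part of the marker changes in the results below was not tested. L363-CFZr DMSO 24 h replicate 2 and AMO1 CFZ 24 h replicate 2 stood apart from their groups. The main results that rest on them are given with and without them, and other 24 h values of these groups include them. AMO1 NCP26 6 h replicate 1 also differed from its group, in the number of genes with a count. It held 15581 such genes at 2500293 counts, against 13577 and 13636 in replicates 2 and 3. The AMO1 NCP26 values at 6 h include it unless stated. The sample numbers in the table's column names ran from 1 to 22 in 3 sets. AMO1 at 6 h, its DMSO libraries at 24 h and 1 CFZ library at 24 h were in set 1, all other AMO1 libraries at 24 h were in set 2 with most of L363-CFZr at 6 h, and the rest of L363-CFZr was in set 3. What a set stands for is not given in the sources used here, and although the methods speak of biological triplicates in general, the labels do not say whether the 3 libraries of a group came from separate cultures, so p-values measure the spread between these libraries, which may be technical.

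The first comparison set the resistant line against AMO1 under DMSO. ABCB1 was far higher in L363-CFZr. At 6 h its level was 257, 255 and 258 CPM in the AMO1 libraries and 1734, 1840 and 1636 CPM in the L363-CFZr libraries. The groups were far from overlapping. The log2 fold change was 2.74 (SE 0.07, 6.67-fold, adjusted p = 4.88e-18, n = 3 against 3), by the quasi-likelihood test of edgeR, adjusted by Benjamini-Hochberg over all tested genes, which gave every adjusted p below unless another tool is named. The background was high, as 60.2% of all tested genes were called between the lines at 6 h and 39.9% at 24 h, or 65.0% at 24 h without L363-CFZr DMSO 24 h replicate 2 (called meaning an adjusted p under 0.05). In bulk RNA, fewer cells with a transcript and less of it per cell cannot be told apart. In both comparisons all AMO1 libraries and all L363-CFZr libraries were in different sets of sample numbers, so the set and the line cannot be told apart either.

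At 24 h ABCB1 stood at 243, 217 and 233 CPM in AMO1 and at 1578, 1789 and 1727 CPM in L363-CFZr, again with no overlap. The log2 fold change was 2.88 (SE 0.14, 7.38-fold, adjusted p = 1.52e-05), and 2.83 without L363-CFZr DMSO 24 h replicate 2. The level of ABCB1 moved little between the times, by a log2 fold change of -0.15 from 6 h to 24 h in AMO1 (adjusted p = 0.0686) and of -0.03 in L363-CFZr (adjusted p = 0.904).

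Per kilobase of transcript, the scale on which genes can be compared, ABCB1 already led the members in AMO1, at 49.3 CPM per kb under DMSO at 6 h, ahead of ABCC1 (13.4), ABCC5 (8.26), ABCC4 (6.64), ABCG2 (0.442) and ABCB4 (0.188). In L363-CFZr it reached 334 CPM per kb, followed by ABCC5 (8.81), ABCC1 (6.79), ABCC4 (3.87) and ABCB4 (1.82). ABCB1 thus made up 63.0% ± 0.56 (SD, n = 3) of the summed level of the 6 members per kb in AMO1 and 94.0% ± 0.55 in L363-CFZr at 6 h. At 24 h the shares were 60.8% ± 1.55 and 91.0% ± 2.35, the latter with L363-CFZr DMSO 24 h replicate 2 included.

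**Figure D1:**
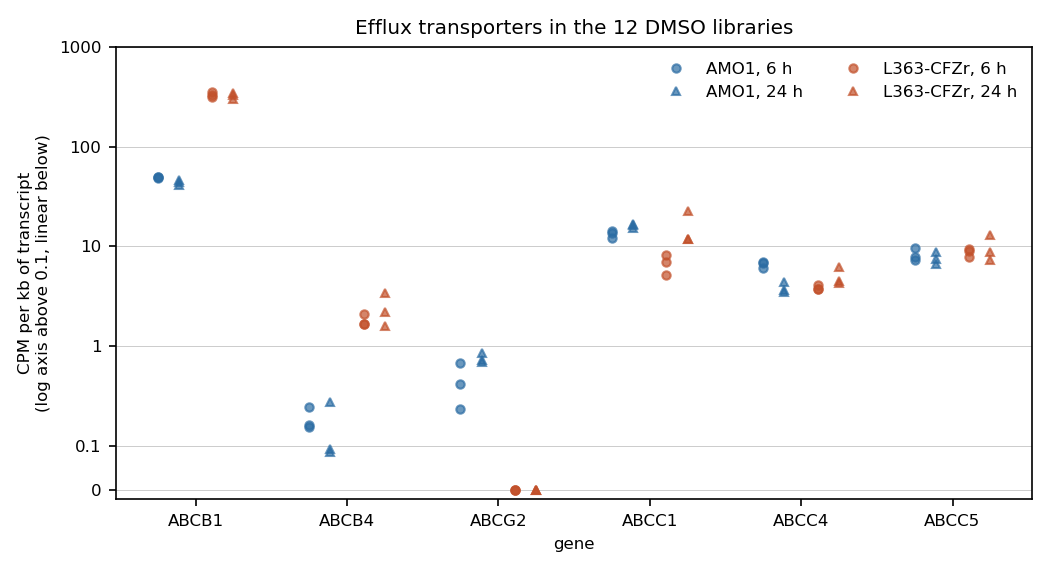
Levels of the 6 transporters in the 12 DMSO libraries, in CPM per kb of transcript (log axis above 0.1, linear below), with 1 point per library, circles for 6 h, triangles for 24 h, and colours for the lines. ABCB1 lies near 49.3 CPM per kb in AMO1 and 334 in L363-CFZr at 6 h, ABCG2 is at 0 in all 6 L363-CFZr libraries, and ABCC5 overlaps between the lines.

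ABCG2 went the other way. AMO1 under DMSO had 0.991, 1.75 and 2.83 CPM at 6 h and 2.93, 3.07 and 3.60 CPM at 24 h, from 3 to 18 counts per library. L363-CFZr had 0 counts in all 6 DMSO libraries, and over its 30 libraries only 5 counts in all, with 26 libraries at 0. A count of 0 in a group of 3 libraries allows up to 3 counts, or 0.282 CPM at 6 h and 0.277 CPM at 24 h, for counting error only. These limits lay 6.59-fold below the AMO1 mean at 6 h and 11.6-fold below it at 24 h. The AMO1 means were taken as exact, though they rest on 16 and 39 counts, so the folds are not strict bounds. It was too low to enter the test at 6 h, and at 24 h it entered only through AMO1, where it was high, so no test is given.

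ABCB4 was low in both lines and higher in L363-CFZr, at 0.66, 0.699 and 1.06 CPM in AMO1 (2 or 3 counts each) and 7.23, 7.15 and 9.01 CPM in L363-CFZr at 6 h. The groups did not overlap at 6 h. The fitted log2 fold changes were 3.22 (SE 0.39) at 6 h and 3.86 (SE 0.51) at 24 h, or 3.55 at 24 h without L363-CFZr DMSO 24 h replicate 2. They are a description, because ABCB4 passed the filter on low counts only through L363-CFZr. How much of this is ABCB4 itself is uncertain and was not tested. Over all libraries the counts of ABCB4 and ABCB1 stood at a similar ratio in both lines. Of every 1000 counts for the pair, 3.87 were for ABCB4 in AMO1 (174 counts, exact 95% binomial interval 3.31 to 4.48) and 3.82 in L363-CFZr (859 counts, 3.57 to 4.09). These sums pool DMSO and treated libraries. Under DMSO alone the ratios were 3.12 (1.26 to 6.42) at 6 h and 2.91 (1.26 to 5.72) at 24 h in AMO1, and 4.62 (3.69 to 5.71) at 6 h and 5.77 (4.73 to 6.98) at 24 h in L363-CFZr. Whether ABCB1 reads counted for ABCB4 through shared words was not tested. Within L363-CFZr the pooled ratio was 5.77 per 1000 (4.73 to 6.98) under DMSO at 24 h, with replicate 2 included. It was 3.11 (2.51 to 3.81) under NCP26, where ABCB1 rose and ABCB4 was not called. The intervals leave out the spread between libraries, and whether the ratio differed was not tested.

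**Figure D2:**
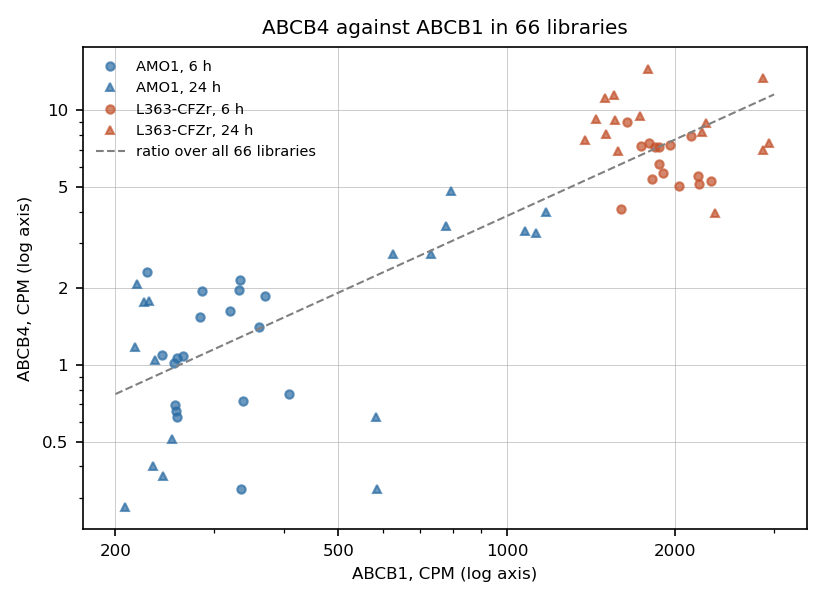
ABCB4 level against ABCB1 level (CPM, log axes) in the 66 libraries, 1 point per library, with colours for the lines, circles for 6 h and triangles for 24 h. The dashed line marks the ratio over all libraries, 3.83 ABCB4 counts per 1000 counts of both genes, and the points of both lines scatter on either side of it, more widely in AMO1, where ABCB4 had at most 12 counts per library.

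ABCC1 and ABCC4 were lower in L363-CFZr at 6 h. ABCC1 stood at 89.5, 93.0 and 79.7 CPM in AMO1 and at 33.9, 53.1 and 45.5 CPM in L363-CFZr (log2 fold change -1.005, SE 0.13, adjusted p = 8.13e-07). ABCC4 stood at 36, 39.9 and 40.7 CPM against 21.7, 24.2 and 22.1 CPM (log2 fold change -0.80, SE 0.13, adjusted p = 3.27e-05). Neither pair of groups overlapped. At 24 h the picture changed with time and with 1 library. ABCC1 was 99.3, 109 and 106 CPM in AMO1 against 77.7, 149 and 77.5 CPM in L363-CFZr, which was not called (log2 fold change -0.05, adjusted p = 0.908), but became -0.45 (adjusted p = 2.09e-05) without L363-CFZr DMSO 24 h replicate 2, the library at 149. ABCC4 was 25.6, 21.2 and 20.4 CPM against 26.1, 36.5 and 24.9 CPM and was not called (log2 fold change 0.38, adjusted p = 0.168, and 0.21 without that library).

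ABCC5 showed no detected difference between the lines, at 45.6, 42.7 and 55.2 CPM in AMO1 and 52.6, 45.6 and 54.7 CPM in L363-CFZr at 6 h. The intervals of the log2 fold change were -0.17 to 0.33 at 6 h and -0.21 to 0.90 at 24 h. Without L363-CFZr DMSO 24 h replicate 2 the 24 h value was 0.09. For ABCB1, ABCC1, ABCC4 and ABCC5, 4 of 8 tests between the lines were called, 2 higher and 2 lower in L363-CFZr, against 49.8% of the tests of all genes over both times.

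Under DMSO, 2 of the members changed between 6 h and 24 h. In L363-CFZr the DMSO libraries were in set 2 at 6 h and in set 3 at 24 h. Time and set cannot be told apart there. Between DMSO at 6 h and at 24 h, which also differ in how samples were kept before RNA extraction, 46.5% of tested genes were called in AMO1 and 14.8% in L363-CFZr, or 41.1% in L363-CFZr without DMSO 24 h replicate 2. In AMO1, ABCC4 fell by 0.81 on the log2 scale (SE 0.13, adjusted p = 2.02e-05) and ABCC1 rose by 0.27 (SE 0.09, adjusted p = 0.0125). The ABCC1 call was lost without AMO1 DMSO 6 h replicate 3 or 24 h replicate 2 (lowest value 0.20), and with DESeq2 or all groups in 1 fit. In L363-CFZr, ABCC1 rose by 1.20 (SE 0.30, adjusted p = 0.0366), by 0.82 without DMSO 24 h replicate 2 (adjusted p = 7.19e-05), and was not called without any 1 of the 6 h libraries (highest value 1.37).

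The next comparisons asked what each compound did to the members in AMO1. ABCB1 rose with NCP26, HFG and CFZ at both times, by far more at 24 h, and was not called with NCP22 or halofuginol. At 24 h, against 243, 217 and 233 CPM under DMSO, it stood at 1078, 1127 and 1174 CPM under HFG, at 779, 794 and 733 CPM under CFZ and at 584, 587 and 627 CPM under NCP26. All libraries of these 3 treatments lay above all DMSO libraries, and the treatments did not overlap with each other. The log2 fold changes were 2.29 for HFG (SE 0.05, 4.88-fold, adjusted p = 1.02e-16), 1.76 for CFZ (SE 0.11, 3.38-fold, adjusted p = 6.16e-05) and 1.38 for NCP26 (SE 0.05, 2.598-fold, adjusted p = 9.64e-21). Among all tested genes, 59% were called with HFG, 27% with CFZ and 60.7% with NCP26 at 24 h. Without CFZ replicate 2 the CFZ value was 1.72.

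The DMSO libraries of AMO1 at 24 h were in set 1 and most treated libraries in set 2, so the 24 h values above cross sets. Under NCP22 at 24 h, in the same set as NCP26 and HFG, ABCB1 stood at 229, 235 and 252 CPM, and under halofuginol at 225, 208 and 219 CPM. These 6 libraries stayed near the 217 to 243 CPM of the DMSO libraries. The CFZ library that shares set 1 with DMSO stood at 779 CPM. NCP22 gave a log2 fold change of 0.06 (95% interval -0.10 to 0.21) and halofuginol one of -0.10 (-0.23 to 0.04), with 0% and 0.183% of tested genes called. For NCP22, edgeR called 0 genes with the filter on low counts and 98 without it, 638 had an unadjusted p under 0.05, DESeq2 called 2, and the fit with the replicate block called 50.

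At 6 h the rises of ABCB1 were smaller. DMSO libraries stood at 257, 255 and 258 CPM, HFG at 407, 370 and 361 CPM, CFZ at 332, 338 and 320 CPM and NCP26 at 286, 333 and 335 CPM. None of these groups reached down to DMSO. The log2 fold changes were 0.60 for HFG (SE 0.07, adjusted p = 3.97e-06, 54.3% of tested genes called), 0.36 for CFZ (SE 0.06, adjusted p = 0.000225, 26.9%) and 0.32 for NCP26 (SE 0.10, adjusted p = 0.0235, 37.3%). The NCP26 call was lost when any DMSO library or NCP26 replicate 2 or 3 was left out, and under an offset for GC content (0.13). It was kept without NCP26 replicate 1, the library at 286 CPM. Over all fits without 1 library the value ran from 0.28 to 0.42. NCP22 (242, 264 and 283 CPM, 13.5% of genes called) and halofuginol (258, 254 and 228 CPM, 3.62%) overlapped with DMSO, with intervals of -0.10 to 0.20 and -0.18 to 0.09.

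**Figure D3:**
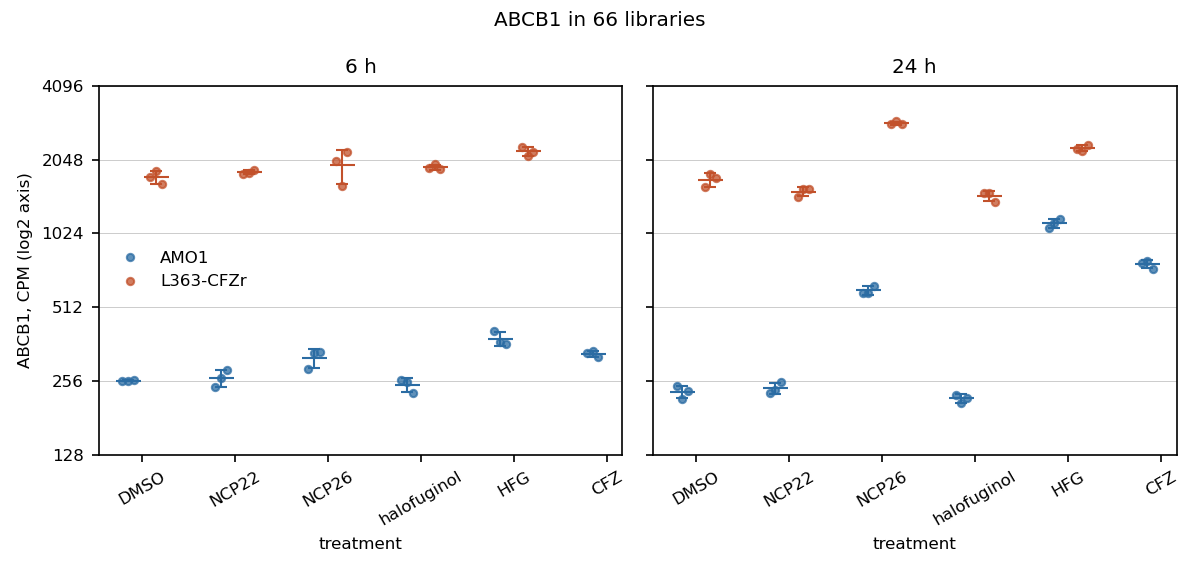
ABCB1 in all 66 libraries, in CPM on a log2 axis, by treatment at 6 h and 24 h. Points are libraries, bars give the mean and SD of 3, and colours mark the lines. In AMO1 the 24 h groups of NCP26 (599 ± 24.0 CPM), CFZ (768 ± 31.6) and HFG (1126 ± 47.8) stand above DMSO (231 ± 13.3), and every L363-CFZr library lies above every AMO1 library.

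ABCC5, ABCC4 and ABCC1 mostly fell where they were called in AMO1. ABCC5 went from 45.6, 42.7 and 55.2 CPM under DMSO to 28.5, 33.9 and 30.5 CPM under NCP26 and 29.1, 30.4 and 30.02 CPM under HFG at 6 h. Both treated groups lay below DMSO with no overlap. The log2 fold changes were -0.61 (SE 0.14, adjusted p = 0.00456) and -0.64 (SE 0.12, adjusted p = 0.0004). At 24 h ABCC5 was 31.5, 34.3 and 39.4 CPM under HFG and overlapped with DMSO (50.9, 43.4 and 39.0 CPM), for a log2 fold change of -0.30 (adjusted p = 0.0434). That call was lost without DMSO replicate 1 or 2 or HFG replicate 1 or 2 (-0.40 to -0.22 over the replicates) and with the replicate block, DESeq2, the GC offset or all groups in 1 fit.

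ABCC1 fell with HFG, from 89.5, 93.0 and 79.7 to 57.9, 66.7 and 70.7 CPM at 6 h (log2 fold change -0.37, SE 0.10, adjusted p = 0.00433) and from 99.3, 109 and 106 to 74.2, 63.6 and 76.1 CPM at 24 h (-0.56, SE 0.08, adjusted p = 1.1e-05). No HFG library reached its DMSO group at either time. With CFZ at 6 h ABCC1 rose to 98.3, 113 and 104 CPM (0.26, SE 0.09, adjusted p = 0.0314), a call lost without DMSO replicate 3 or CFZ replicate 2 or 3 (lowest 0.21) and with the replicate block, DESeq2 or all groups in 1 fit. With CFZ at 24 h it stood at 88.2, 149 and 81.1 CPM. The value of 0.04 (adjusted p = 0.911) there turned to -0.30 (adjusted p = 0.00673, 48.2% of genes called) without CFZ replicate 2, the library at 149.

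ABCC4 fell with HFG at 6 h, from 36, 39.9 and 40.7 to 30.3, 32 and 26 CPM (log2 fold change -0.38, SE 0.13, adjusted p = 0.017), a call lost without HFG replicate 3 (-0.28) and with DESeq2. It fell with NCP26 at 24 h, from 25.6, 21.2 and 20.4 to 15.6, 14 and 11.2 CPM (-0.70, SE 0.16, adjusted p = 0.000528). The groups did not overlap in either case. For HFG at 24 h it stood at 17.4, 14.5 and 19.9 CPM (-0.34, 95% interval -0.69 to 0.0040, adjusted p = 0.0823) and was not called.

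ABCB4 and ABCG2 were mostly too low in AMO1 to enter these tests, and their values are counts of a few reads. Under DMSO at 24 h ABCG2 had 8, 13 and 18 counts (2.93, 3.07 and 3.60 CPM), and it had 1, 2 and 3 counts under NCP26, 1, 3 and 0 under HFG and 1, 1 and 2 under CFZ. Each of these libraries lay below each DMSO library. With no filter on low counts the log2 fold changes were -2.33 (adjusted p = 0.000403), -2.49 (adjusted p = 0.00117) and -2.59 (adjusted p = 0.0121). Those fits called 6761 of 16547, 6687 of 16624 and 3015 of 16878 genes. DESeq2 gave weaker adjusted p of 0.0177, 0.0224 and 0.0296. As ABCG2 did not pass the filter here, these values are a description. NCP26, HFG and CFZ at 24 h were the 3 groups of AMO1 with the highest ABCB1 levels. Under NCP22 (6, 7 and 4 counts) ABCG2 stood at 2.68, 1.82 and 2.06 CPM, also below each DMSO library. Its unfiltered log2 fold change there was -0.59 (adjusted p = 0.878). Under halofuginol (8, 11 and 8 counts) ABCG2 stood at 3.52, 3.04 and 2.08 CPM. ABCB4 had 1, 5 and 2 counts under DMSO, 6, 8 and 12 under HFG and 10, 12 and 7 under CFZ at 24 h. Its unfiltered log2 fold changes were 2.32 (adjusted p = 0.000869) and 2.40 (adjusted p = 0.0169), with adjusted p of 0.00768 and 0.0190 by DESeq2. ABCB4 did not pass the filter here either, so these values too are a description. ABCB1 changed by 2.29 and 1.76 in the same groups, and the caution on shared words applies. Under NCP26 at 24 h, where ABCB1 changed by 1.38, ABCB4 had 2, 1 and 9 counts (unfiltered value 0.85, adjusted p = 0.426). NCP22 and halofuginol at 24 h gave unfiltered ABCB4 values of 0.72 (adjusted p = 0.880) and 0.96 (adjusted p = 0.793).

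Over the 10 AMO1 comparisons, 14 of 41 tests of members were called, 7 higher and 7 lower, against 28.2% of the tests of all genes. Of the 7 higher calls, 6 were for ABCB1 and 1 was for ABCC1, and the 7 lower calls were shared between ABCC1, ABCC4 and ABCC5. As ABCB1 rose and the ABCC members did not, its share of the summed level per kb went from 60.8% under DMSO at 24 h to 81.4% ± 2.02 with NCP26, 83.0% ± 3.57 with CFZ and 91.2% ± 0.57 with HFG (SD, n = 3). The groups of L363-CFZr had means from 91.0% to 95.5%. The lowest was DMSO at 24 h (91.0% ± 2.35), which holds the replicate 2 that stood apart. Next came halofuginol at 24 h (91.8% ± 0.49). The HFG value in AMO1 lay above the DMSO mean only.

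**Figure D4:**
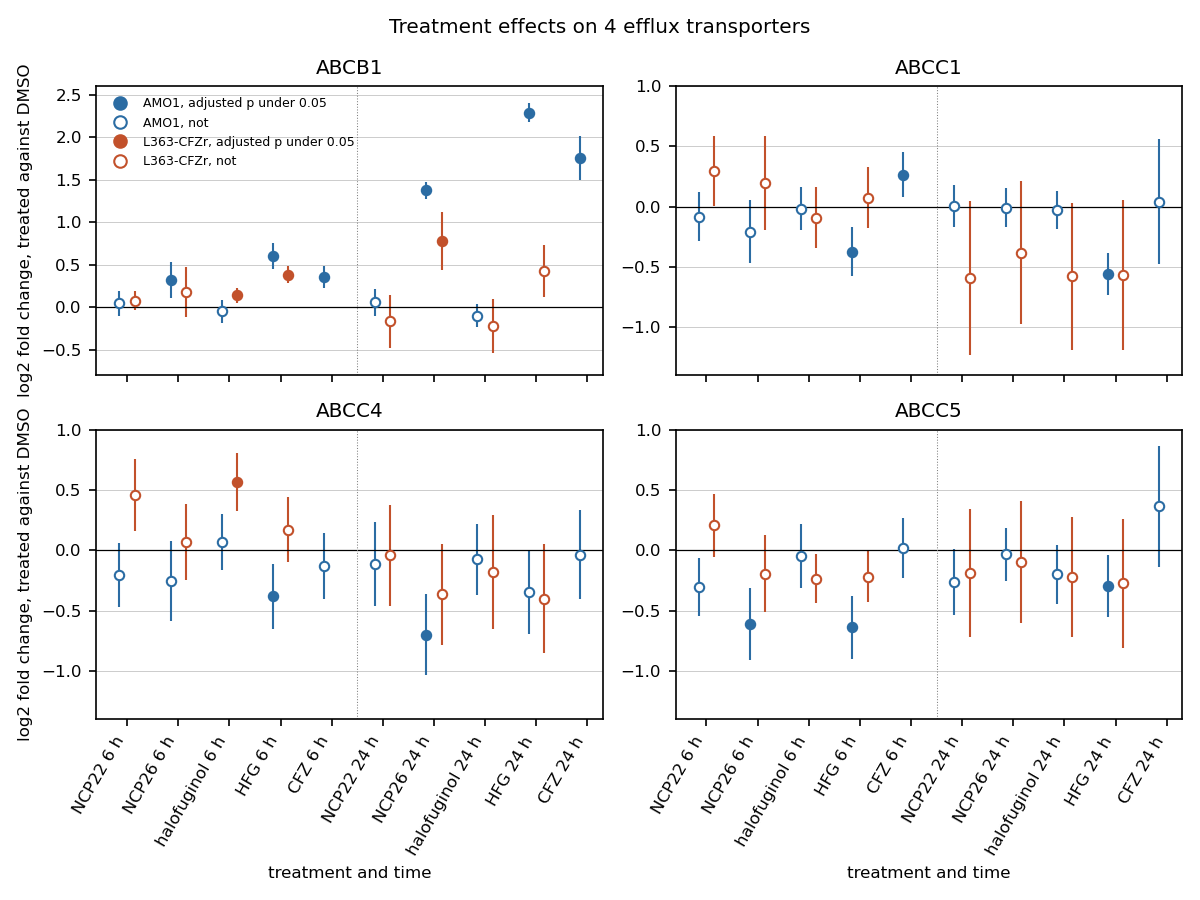
Log2 fold changes of treated against DMSO libraries for ABCB1, ABCC1, ABCC4 and ABCC5, by treatment and time, with 95% intervals. Colours mark the lines and filled points have an adjusted p under 0.05. For ABCB1 the AMO1 values at 24 h reach 1.38 (NCP26), 1.76 (CFZ) and 2.29 (HFG), while the values of the ABCC genes that are called in AMO1 lie below 0 except for ABCC1 with CFZ at 6 h.

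In L363-CFZr the same compounds were compared with DMSO, starting from a level of ABCB1 that was already high. NCP26 gave the largest rise of ABCB1 there. At 24 h its libraries stood at 2869, 2936 and 2863 CPM against 1578, 1789 and 1727 CPM under DMSO, with no overlap. The log2 fold change was 0.78 (SE 0.15, 1.71-fold, adjusted p = 0.0217), with 7.09% of tested genes called. The call was lost with the replicate block and without DMSO replicate 1 or 3 or any 1 NCP26 library (lowest value 0.73). Without DMSO replicate 2, which stood apart, the value was 0.82 with an adjusted p of 5.04e-07 and 28.6% of genes called. All libraries of L363-CFZr at 24 h were in 1 set.

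HFG left ABCB1 at 2271, 2230 and 2356 CPM at 24 h, above every DMSO library. The log2 fold change of 0.43 (95% interval 0.13 to 0.73, adjusted p = 0.181, 1.17% of genes called) was not called. Without DMSO replicate 2 it was 0.47 with an adjusted p of 3.40e-09 and 19.5% of genes called. It was also called by DESeq2 (0.45) and with all groups in 1 fit (0.44). NCP22 (1440, 1558 and 1552 CPM) and halofuginol (1500, 1502 and 1379 CPM) lay just below DMSO, with log2 fold changes of -0.16 (95% interval -0.48 to 0.15) and -0.22 (-0.53 to 0.10), neither called. For these, edgeR called 0% of genes, with 213 and 410 at an unadjusted p under 0.05, and DESeq2 called 0 in each.

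At 6 h in L363-CFZr, HFG raised ABCB1 from 1734, 1840 and 1636 to 2314, 2128 and 2203 CPM (log2 fold change 0.38, SE 0.05, adjusted p = 4.95e-07, 54.5% of genes called). Halofuginol gave 1903, 1958 and 1871 CPM, a small change of 0.14 (SE 0.04, adjusted p = 0.0233, 25.8% of genes called). Both groups were in set 3 and DMSO in set 2. With an offset for GC content the HFG value was 0.08 and no longer called, and the halofuginol value turned to -0.06. The background moved as well. For halofuginol 2718 of 10519 genes were called in the main fit, 102 with the GC offset and 770 of 11100 with all groups in 1 fit. For HFG 5706 of 10478 were called in the main fit and 3976 with the GC offset. The halofuginol call was also lost without DMSO replicate 1 or 3 or any 1 halofuginol library (lowest 0.09), and with all groups in 1 fit. NCP26 libraries ranged from 1600 to 2198 CPM around DMSO (0.18, adjusted p = 0.360, 18.8% of genes called, and 0.31 with an adjusted p of 0.00273 without NCP26 replicate 2, the library at 1600). NCP22 stood at 1797, 1813 and 1866 CPM (0.08, 95% interval -0.03 to 0.19). For NCP22, edgeR called 0% of genes, with 666 at an unadjusted p under 0.05, DESeq2 called 1, and edgeR called 118 genes with no filter on low counts and 4 with the replicate block.

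Among the other members, only ABCC4 was called in L363-CFZr. ABCC4 rose with halofuginol at 6 h, from 21.7, 24.2 and 22.1 to 31.8, 33.8 and 34.9 CPM (log2 fold change 0.56, SE 0.11, adjusted p = 0.00199), a call lost with the GC offset (0.41). ABCC1, ABCC5 and ABCB4 gave no call, and ABCG2 was never tested. With no filter on low counts, ABCB4 ranged from -0.67 (NCP26 at 6 h, adjusted p = 0.0915) to 0.01 (NCP22 at 24 h). ABCC1 at 24 h stood at 57.0 to 77.9 CPM in all 12 treated libraries and at 77.7, 149 and 77.5 CPM under DMSO, so the negative ABCC1 values (-0.59 to -0.38) rest on DMSO replicate 2. Without it they lay between -0.20 and -0.01. In all, 4 of 40 tests of members were called, all higher, of which 3 were for ABCB1, against 13.4% of the tests of all genes.

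Whether a compound acted differently in the 2 lines was tested directly, as the effect in L363-CFZr minus that in AMO1. At 24 h the AMO1 effects cross sets (DMSO in set 1, NCP26 and HFG in set 2), while those of L363-CFZr do not. For HFG at 6 h only the L363-CFZr effect crosses sets. How far the sets enter these differences was not tested. The HFG effect on ABCB1 at 24 h was smaller in L363-CFZr by 1.87 on the log2 scale (value -1.87, SE 0.13, 95% interval -2.16 to -1.58, adjusted p = 5.26e-06, 16.9% of tested genes called, and -1.82 with 33.4% called without L363-CFZr DMSO 24 h replicate 2). The NCP26 effect at 24 h was smaller by 0.62 (value -0.62, SE 0.14, adjusted p = 0.0208, 5.41% of genes called), and -0.59 with an adjusted p of 6.79e-06 and 21.1% of genes called without that library. That NCP26 call was lost without AMO1 DMSO 24 h replicate 2 or 3, any AMO1 NCP26 library or L363-CFZr NCP26 replicate 2 or 3 (-0.67 to -0.57), and with no filter on low counts. The order of the compounds also differed at 24 h, with ABCB1 higher under HFG than under NCP26 in AMO1 (1126 against 599 CPM) and lower in L363-CFZr (2286 against 2889 CPM), but that reversal itself was not tested.

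At 6 h the lines were not shown to differ for ABCB1, with values of -0.15 for NCP26 (95% interval -0.50 to 0.19, 2.71% of genes called) and -0.21 for HFG (-0.37 to -0.04, adjusted p = 0.0666, 20.7%). The latter was called without AMO1 HFG replicate 3 or L363-CFZr DMSO replicate 3 (-0.26 in each case), with the GC offset (-0.29) and with no filter on low counts (-0.24). ABCC4 differed with HFG at 6 h by 0.56 (SE 0.17, adjusted p = 0.0234), from -0.38 in AMO1 to 0.17 in L363-CFZr. That call was lost in 9 of 18 alternatives. For ABCB4 with HFG at 24 h the fitted difference was -2.89 (SE 0.70) on few counts in AMO1, or -2.59 without L363-CFZr DMSO 24 h replicate 2. It is a description, because ABCB4 was too low to be tested in AMO1 alone. In all, 4 of 20 tests were called, against 11.4% of the tests of all genes. The count includes ABCB4, which passed the filter only through L363-CFZr and whose call is not taken as a result.

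The related compounds were then set against each other at 1 µM and the same time, in 8 pairs of groups and 36 tests of members, with p-values adjusted over all genes of each comparison. NCP26 against NCP22 gave ABCB1 log2 differences of 0.30 (95% interval 0.09 to 0.51, adjusted p = 0.0405, 24.7% of genes called) at 6 h and 1.34 (1.20 to 1.48, adjusted p = 2.08e-09, 52%) at 24 h in AMO1. In L363-CFZr the values were 0.10 (-0.18 to 0.38, adjusted p = 0.624, 20.4%) and 0.93 (0.78 to 1.08, adjusted p = 2.06e-07, 34.1%). NCP26 thus gave more ABCB1 than NCP22 in 3 of the 4 pairs, and in the fourth a difference was not shown. The 6 h call in AMO1 was lost without NCP26 replicate 2 or 3 or any NCP22 library (0.24 to 0.37), with the GC offset (0.24) and with no filter on low counts (0.26), and the 6 h value in L363-CFZr was called without NCP26 replicate 2 (0.23). Both groups of each 24 h pair were in the same set.

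HFG against halofuginol gave ABCB1 differences of 0.64 (0.51 to 0.77, adjusted p = 1.55e-07, 51.7% of genes called) at 6 h and 2.39 (2.27 to 2.52, adjusted p = 3.15e-15, 56.6%) at 24 h in AMO1. In L363-CFZr they were 0.25 (0.18 to 0.31, adjusted p = 1.24e-07, 47.3%) and 0.64 (0.56 to 0.73, adjusted p = 1.04e-08, 21.9%). HFG gave more ABCB1 than its analogue in all 4 pairs, with no overlap of libraries. The L363-CFZr value at 6 h was not called with all groups in 1 fit (0.22, adjusted p = 0.0647).

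For the ABCC genes, HFG lay below halofuginol in AMO1 at 6 h for ABCC1 (-0.36, adjusted p = 0.00191), ABCC4 (-0.46, adjusted p = 0.00274) and ABCC5 (-0.60, adjusted p = 0.000621), and at 24 h for ABCC1 (-0.52, adjusted p = 9.1e-05). NCP26 lay below NCP22 for ABCC4 in AMO1 at 24 h (-0.56, adjusted p = 0.0235), a call lost without NCP26 replicate 2 or 3 or NCP22 replicate 2 (lowest size -0.44) and with DESeq2. In L363-CFZr the call was ABCC4 with HFG against halofuginol at 6 h (-0.39, adjusted p = 0.00302). ABCC5 was not shown to differ between HFG and halofuginol in L363-CFZr, with intervals of -0.17 to 0.20 at 6 h and -0.28 to 0.16 at 24 h, nor ABCC1 between NCP26 and NCP22 in AMO1 (-0.36 to 0.18 and -0.20 to 0.22). In all, 13 of 36 tests were called, 7 higher (all ABCB1) and 6 lower (all ABCC genes), against 38.6% of the tests of all genes.

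Across the 22 groups, the mean level of ABCB1 ran from 217 CPM (AMO1 halofuginol 24 h) to 2889 CPM (L363-CFZr NCP26 24 h). From the top, L363-CFZr NCP26 24 h stood alone, HFG 24 h, HFG 6 h, NCP26 6 h and halofuginol 6 h each overlapped with the next, as did NCP22 6 h, DMSO 6 h and DMSO 24 h, and then NCP22 24 h and halofuginol 24 h. These overlaps are between neighbours in rank only. The L363-CFZr NCP26 6 h libraries, from 1600 to 2198 CPM, also overlapped with NCP22 6 h, DMSO 6 h and DMSO 24 h of that line. The lowest L363-CFZr library (1379 CPM) was above the highest of AMO1 (1174 CPM, HFG 24 h). In AMO1, HFG 24 h, CFZ 24 h, NCP26 24 h and HFG 6 h each stood apart from their neighbours, CFZ and NCP26 at 6 h overlapped, and below them the 6 groups of DMSO, NCP22 and halofuginol overlapped in a chain.

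The ABCC genes had narrower ranges. ABCC1 lay between 57.9 and 149 CPM in the 36 AMO1 libraries (median 89.4) and between 33.9 and 149 CPM in the 30 L363-CFZr libraries (median 58.4). ABCC4 lay between 11.2 and 42.8 CPM in AMO1 and between 19.8 and 36.5 CPM in L363-CFZr. ABCC5 lay between 28.5 and 75.4 CPM and between 35.97 and 75.7 CPM. The highest ABCC1 and ABCC5 values of each line were in the library that stood apart from its group.

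The neighbours of ABCB1 on chromosome 7 were described, as 13 genes of the region were in the table and 9 were tested. Of all tested genes, 60.2% were called between the lines at 6 h and 39.9% at 24 h, and the neighbours that were called lay in both directions. CROT, which encodes a carnitine acyltransferase of peroxisomes and starts 368 kb from the ABCB1 start on the side of ABCB4, was most like ABCB1. Under DMSO it stood at 28.6 ± 0.82 CPM in AMO1 and 181 ± 7.09 CPM in L363-CFZr at 6 h (SD, n = 3), for log2 fold changes of 2.64 (SE 0.10, adjusted p = 4.4e-15) at 6 h and 2.77 (SE 0.14, adjusted p = 1.58e-05) at 24 h. TMEM243 (1.09 and 0.83) and DMTF1 (1.09 and 1.39) on the same side were also higher. GRM3, farther out on that side, was lower (-2.55 and -3.64), with at most 5 counts in an L363-CFZr library. On the other side DBF4 (-0.83 and -0.80) and SLC25A40 (-0.37 and -0.43) were lower and ADAM22 (0.03 and 0.25) and SRI (-0.24 and -0.17) were not called. STEAP1, the farthest at 2441 kb, was also lower, with 0 counts in L363-CFZr at 6 h, and like GRM3 it passed the filter only through AMO1.

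**Figure D5:**
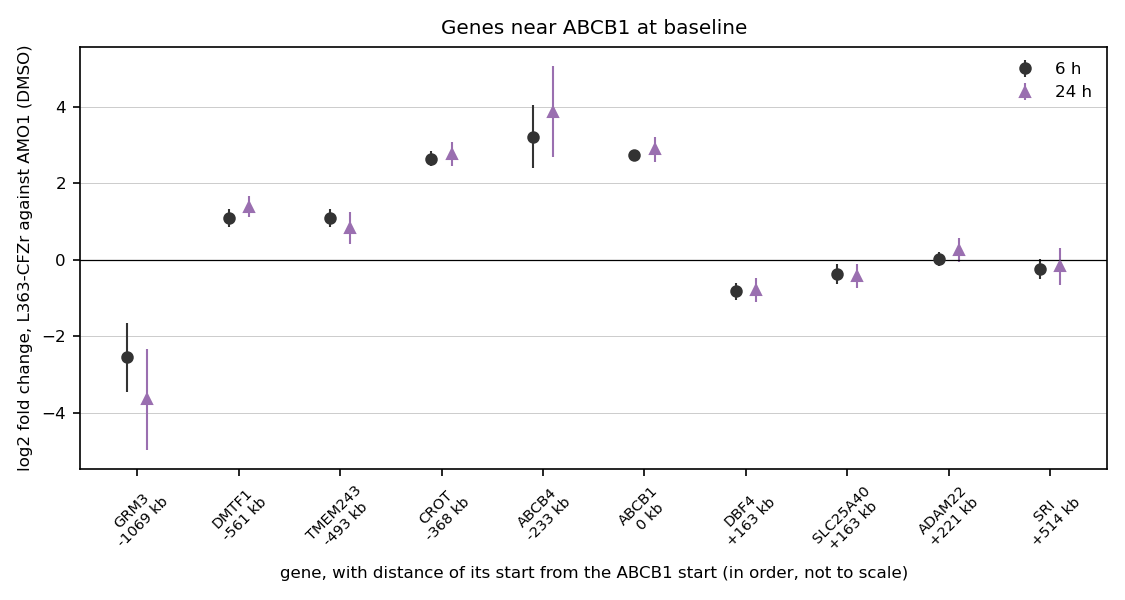
Log2 fold changes of L363-CFZr against AMO1 under DMSO for ABCB1, ABCB4 and 8 tested neighbours on chromosome 7, in order of position, with the distance of each gene's start from that of ABCB1 in kb and 95% intervals. Circles are 6 h and triangles 24 h. CROT (2.64 and 2.77) lies near ABCB1 (2.74 and 2.88), while DBF4 and SLC25A40, at 163 kb on the other side, lie below 0.

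CROT also changed with the compounds. In AMO1 at 24 h it went from 29.7, 31.6 and 37.6 CPM under DMSO to 56.6, 57.3 and 56.4 CPM with NCP26, 111, 83.5 and 103 CPM with HFG and 111, 90.6 and 94.3 CPM with CFZ. All treated libraries lay above DMSO. The log2 fold changes were 0.75 (adjusted p = 1.84e-07), 1.56 (adjusted p = 1.56e-09) and 1.59 (adjusted p = 0.000174). In L363-CFZr at 24 h it was not called with NCP26 (0.12) or HFG (-0.01), and the lines differed in these effects by -0.67 (adjusted p = 0.0142) and -1.59 (adjusted p = 7.13e-05).

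By the correlation of log2 group means over the 22 groups, among 11655 genes, CROT (Pearson r = 0.986) was the gene most like ABCB1, then TMEM255A (0.985) and ZNF558 (0.984). With the mean of each line taken off, the leading genes were NXF1 (0.939), MAML2 (0.935) and ZNF558 (0.935). For ABCC1 the leading genes without the line means were TBKBP1 (0.910), IGF1R (0.905) and TRIM56 (0.901), for ABCC4 NUP155 (0.899), and for ABCC5 FLNA (0.860). The points share libraries, depth and normalization, so these values describe likeness only.

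Of 41 other ABC transporters, 23 were tested between the lines. At 6 h 11 were higher and 4 lower in L363-CFZr, while 60.2% of all tested genes were called. At 24 h 10 were higher and 2 lower, while 39.9% of all tested genes were called, or 65.0% without L363-CFZr DMSO 24 h replicate 2. The counts, median and values of these transporters at 24 h include that library, so the 39.9% is their background. The medians were 0.21 and 0.46, against -0.01 and 0.01 for all tested genes. TAP1, a subunit of the peptide transporter that supplies MHC class I, had the largest change (-2.42 at 6 h, adjusted p = 9.95e-17, and -2.597 at 24 h). ABCC2, a multidrug resistance-associated protein of the bile canaliculus, was higher (1.22, adjusted p = 0.00916, and 1.53), as were the lipid transporter of lung surfactant ABCA3 (1.40 and 2.10), ABCB6 (1.31 and 1.64), the cholesterol exporter ABCA1 (1.03 and 1.16), ABCA7 (0.98 and 1.13) and ABCA2 (0.35 and 1.34). ABCA5 was lower (-1.11 and -1.20).

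With the compounds, 59 of 225 tests of these other transporters were called in AMO1 (33 higher, 26 lower) and 28 of 184 in L363-CFZr (11 higher, 17 lower), against 28.2% and 13.4% of the tests of all genes. ABCD2, a peroxisomal fatty acid transporter, was called most often, in 9 of 18 comparisons, 8 of them higher, such as 1.25 with NCP26 and 1.00 with HFG in AMO1 at 24 h. ABCA2 was lower in all 7 comparisons that called it. ABCA5 was higher in all 6 of its calls, ABCB6 was called higher 4 times and lower 3 times, ABCF1 higher 1 time and lower 6 times, and ABCA7 higher 3 times and lower 2 times.

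Of 12 genes known to regulate efflux transporters, 9 were tested between the lines, with 1 higher and 6 lower at 6 h and 1 higher and 4 lower at 24 h. The shares of all tested genes called were 60.2% at 6 h and 39.9% at 24 h, or 65.0% at 24 h without L363-CFZr DMSO 24 h replicate 2. The counts and values of the regulators at 24 h include that library. ARNT, the partner of the aryl hydrocarbon receptor, was lower (-1.84, adjusted p = 2.07e-14, and -1.92, adjusted p = 0.000551), and so were NFE2L2, the oxidative stress factor NRF2 (-1.27 and -1.35), and HIF1A, the hypoxia factor (-0.69 and -0.41). KEAP1, which marks NFE2L2 protein for degradation, was higher (0.52 and 0.32). JUN was not called (0.32 and -0.24).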

How the data were processed

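Polyadenylated RNA was sequenced from directional libraries, and the authors deposited whole-number counts per gene from kallisto with 31-base words. The study's methods name GRCh38 and the labels hg19, while no source used here states the kallisto version, the annotation or whether strand was used. Gene IDs were matched to GENCODE v44 (19299 of 20167, 95.7%). Samples at 6 h were frozen overnight and those at 24 h kept on ice before extraction. edgeR 4.0.16 (R 4.3.3) was run with TMM scaling, a filter (filterByExpr, minimum count 10, minimum total 15), quasi-likelihood tests on the libraries compared and Benjamini-Hochberg adjustment over all tested genes. CPM levels used TMM factors over all 66 libraries. Replicates share numbers across groups. In 0 of 30 comparisons did all 3 same-numbered pairs deviate together, so the main fit held no block. No 2 replicates were identical. Intervals of log2 fold changes include the spread between libraries, while binomial intervals and floors cover counting error only. The steps were tested on simulated data. DESeq2 1.42.0, other filters and offsets were tried as alternatives. The members and lists were chosen with earlier results of these data known. Named genes were all members, the other ABC genes with the largest or most frequent calls, and any tested neighbour or regulator. 1 transporter of the list is not reported here. The genes most like a member were the top 3 by correlation.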

Additional observations from a re-analysis of the deposited data

Results flagged for a closer look

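In 4 tests the interaction of compound and line for a member (L363-CFZr minus AMO1) had an adjusted p under 0.05. That of ABCB4 is not taken as a result, as ABCB4 passed the filter only through L363-CFZr. For ABCB1 with HFG at 24 h the difference was -1.87 on the log2 scale, from 2.29 in AMO1 and 0.43 in L363-CFZr. For ABCB1 with NCP26 at 24 h it was -0.62, from 1.38 and 0.78. For ABCB4 with HFG at 24 h it was -2.89 (-2.59 without L363-CFZr DMSO 24 h replicate 2), on 8 counts in the AMO1 DMSO libraries. That value is a description only, as ABCB4 was too low to be tested in AMO1 alone. For ABCC4 with HFG at 6 h it was 0.56, from -0.38 and 0.17.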

How the results depend on the processing

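Over 942 alternatives for members, leave-one-out fits apart, 870 kept direction and side of the threshold, 27 changed sign with no call in either fit, 23 lost a call, 21 gained one and 1 reversed a called value. The GC content offset left 2 calls in L363-CFZr in place of 4 and gave 7 differences between lines in place of 4. It also turned ABCB1 with halofuginol at 6 h in L363-CFZr to -0.056 and ABCA7 with HFG at 6 h there to 0.064, and the cause was not tested. Leaving out 1 library moved ABCC1 with CFZ at 24 h in AMO1 between -0.30 (without CFZ replicate 2) and 0.21, and the ABCC1 difference with HFG at 24 h between -0.19 and 0.37 (without L363-CFZr DMSO replicate 2). Without 1 library the calls ranged from 12 to 15 in AMO1, 3 to 6 in L363-CFZr and 12 to 14 between compounds. The replicate numbers did not pair the samples (correlations of -0.36 to 0.33). With the replicate block 12 calls were made in AMO1 and 3 in L363-CFZr, and ABCB1 with NCP26 at 24 h in L363-CFZr (0.78) was no longer called. Depth limits ABCB4 and ABCG2 most, as libraries of AMO1 held at most 12 and 18 counts of them.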
